A study of Mus musculus with 2 samples.

Results

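The genes described here are 9 histone genes with a known place in the mouse testis, chosen by name from the 36547 genes in the tables of both libraries. They are the linker histones Hist1h1t, H1fnt and Hils1, the testis forms of H2A and H2B (Hist1h2aa and Hist1h2ba), the H2A variants H2afx and H2afz, and the genes H3f3a and H3f3b, which both code for histone H3.3. All 9 had UMIs in both libraries. The study sequenced testis cells of C57BL/6 mice at 12-week-old age, as 1 WT library and 1 library from mice without the RNA demethylase Alkbh5 (Alkbh5-/-, called KO). Strain, age and tissue were the same in both, and homozygous KO mice came from crosses of heterozygous mice. The methods describe testes of 3 mice per genotype, while each genotype has 1 library with no label for the animal. No difference between WT and KO therefore has a replicate check, and no p-value is given.

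Sperm chromatin is rebuilt during spermatogenesis. Histones of the dividing cell are partly replaced by testis variants in meiosis, and in the elongating spermatid most histones give way to transition proteins and then to protamines. H1t is the linker histone of meiotic spermatocytes, whereas H1fnt (H1T2) and Hils1 are linker histones of spermatids. TH2A and TH2B, the products of Hist1h2aa and Hist1h2ba, enter chromatin early in meiosis. H2A.X is phosphorylated at DNA breaks and over the silenced X and Y chromosomes, H2A.Z marks promoters, and H3.3 is the form of H3 that is deposited outside DNA replication.

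The 5 testis linker and H2A and H2B genes are short genes without introns in the GENCODE vM21 annotation of GRCm38. H1fnt lies at chr15:98255986-98257293 on the minus strand, Hils1 at chr11:94967593-94968456 on the plus strand and Hist1h1t at chr13:23695814-23696725 on the plus strand. Hist1h2ba (chr13:23933773-23934156, minus strand) and Hist1h2aa (chr13:23934462-23934851, plus strand) stand head to head, with 305 bases between the annotated genes. H2afx, also of 1 exon, lies at chr9:44334694-44336077 on the plus strand. H2afz (chr3:137864487-137866922, plus strand) has 5 exons in its longest coding transcript, H3f3a (chr1:180800832-180813943, minus strand) 4 and H3f3b (chr11:116021912-116027962, minus strand) 6. Hils1 lies inside Sgca, and H3f3a overlaps Gm17275 and H3f3aos, all annotated on the opposite strand and present in the tables. Strand use in counting is not given in the sources used here, and reads of Hils1 or H3f3a and of these partners cannot be told apart. The coding regions of H3f3a and H3f3b, 408 bases each, were the same at 313 positions (76.7%), and 81 of the 95 differing positions were the last of their codon.

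The sequences before the starts of the testis genes are shown because they contain the region that the Hist1h2aa and Hist1h2ba pair shares. RefSeq (GRCm38.p6) gave a start for 8 of the 9 genes, and H2afx is named only. Each line is the 250 bases before a start, 5′ to 3′ on the strand of its gene. Capitals mark matches on either strand to the letters of the TATA box (TATAAA or its reverse TTTATA), the CCAAT box (CCAAT, reverse ATTGG), the octamer known from histone promoters (ATTTGCAT, reverse ATGCAAAT), the core of a CREB site (TGACG, reverse CGTCA) and the GC box (GGGCGG, reverse CCGCCC).
Hist1h2aa, chr13:23934187-23934436, plus strand: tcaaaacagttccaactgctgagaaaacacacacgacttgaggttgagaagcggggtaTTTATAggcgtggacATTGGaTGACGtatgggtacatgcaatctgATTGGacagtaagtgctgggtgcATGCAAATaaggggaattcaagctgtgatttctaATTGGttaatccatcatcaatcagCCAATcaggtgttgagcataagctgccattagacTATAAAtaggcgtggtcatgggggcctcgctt
Hist1h1t, chr13:23695561-23695810, plus strand: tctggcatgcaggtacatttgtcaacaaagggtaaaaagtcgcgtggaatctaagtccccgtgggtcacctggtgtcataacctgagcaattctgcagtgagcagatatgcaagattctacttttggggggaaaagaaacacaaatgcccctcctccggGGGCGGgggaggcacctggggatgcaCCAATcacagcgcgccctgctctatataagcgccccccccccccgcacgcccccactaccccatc
H1fnt, chr15:98257308-98257557, minus strand: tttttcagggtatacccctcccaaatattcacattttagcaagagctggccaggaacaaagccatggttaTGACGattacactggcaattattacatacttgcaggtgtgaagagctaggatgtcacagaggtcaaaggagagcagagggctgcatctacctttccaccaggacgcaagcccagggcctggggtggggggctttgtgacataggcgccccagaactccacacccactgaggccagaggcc
Hils1, chr11:94967343-94967592, plus strand: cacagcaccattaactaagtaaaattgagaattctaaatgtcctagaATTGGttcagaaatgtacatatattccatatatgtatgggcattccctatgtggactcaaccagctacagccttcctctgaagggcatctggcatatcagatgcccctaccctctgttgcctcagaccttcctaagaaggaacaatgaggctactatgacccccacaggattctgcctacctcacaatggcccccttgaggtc

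The window of Hist1h2ba (chr13:23934157-23934406, minus strand) is the other strand of 220 of the bases shown for Hist1h2aa, and the RefSeq starts of the pair are 280 bases apart. The Hist1h2aa window held CCAAT 4 times, TATAAA 2 times, and ATTTGCAT and TGACG once each. None of these matches overlapped another in the printed windows. Of 32851 windows of this length, 33.8% held CCAAT, 12.4% TATAAA, 17.8% TGACG, 32.7% GGGCGG and 1.6% ATTTGCAT on either strand. Among the 8 windows, ATTTGCAT was in those of Hist1h2aa, Hist1h2ba and H3f3b. The H3f3b window also held CCAAT 4 times, whereas the H3f3a window held CCAAT once and GGGCGG 4 times, and the H2afz window CCAAT 2 times and GGGCGG once. These are matches of letters and not shown sites.

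The WT table held 5756 cell barcodes and 80283221 UMIs (unique molecular identifiers, each counting a captured RNA 3′ end once), with a median of 10905.5 UMIs per cell, and the table of the KO held 7012 barcodes and 82056760 UMIs, with a median of 9117.5. Alkbh5 itself had 607 UMIs in WT and 5 in KO, or 7.56 and 0.0609 counts per 1000000 UMIs (CPM). The libraries shared 45 barcodes, 4 of them in the same class in both. Cells were clustered jointly, and clusters were called X-like from markers that included no histone gene. The 12 germ cell clusters held 5586 WT and 5257 KO cells, of which 2.76% and 17.4% were spermatogonia-like, 1.20% and 5.08% early spermatocyte-like and 43.1% and 24.8% elongating spermatid-like. Late spermatocyte-like and round spermatid-like classes took similar shares of germ cells in both (12.8% and 12.6% for late spermatocyte-like cells). Clusters are named below by one of their 10 leading genes. The germ cell classes are therefore compared one by one, since a level pooled over germ cells can move with these shares.

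Levels are given in CPM, over the UMIs of a cluster or class in 1 library, with the 95% exact Poisson interval, and shares of cells with the exact binomial interval. These intervals cover counting error only. UMIs were not divided by gene length, so levels of one gene are compared between clusters and levels of different genes are not. H2afz, H3f3b, Hils1, Hist1h1t, Hist1h2aa and Hist1h2ba were among the genes used for clustering, and the differences between clusters are descriptions.

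**Figure D1:**
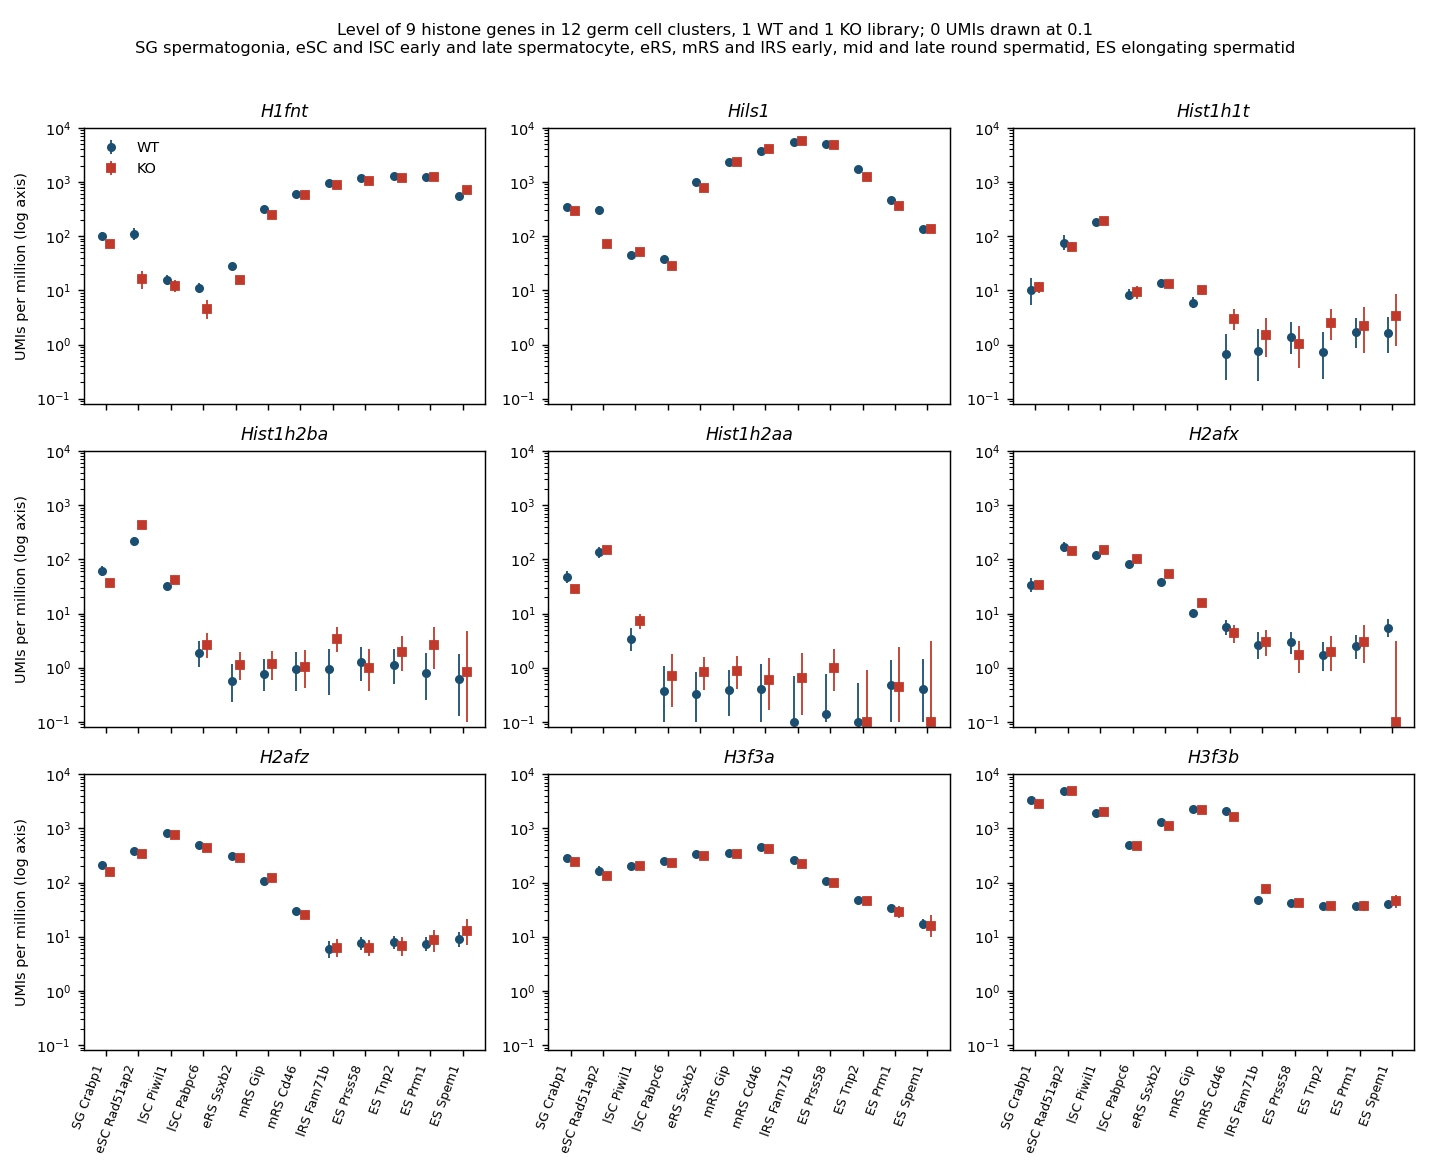
Level of each of the 9 genes (CPM, log axis) in the 12 germ cell clusters in stage order, for the WT library (circles) and the KO library (squares), with 95% exact Poisson intervals and 0 UMIs drawn at 0.1. Hist1h2ba and Hist1h2aa peak in the Rad51ap2 cluster, Hist1h1t and H2afz in the Piwil1 cluster, Hils1 in the Fam71b cluster, and H3f3b is at 2056 (WT) and 1634 (KO) in the Cd46 cluster and at 48.5 and 75.1 in the Fam71b cluster.

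The 3 linker histones had their highest levels one after another. Hist1h1t, the meiotic linker histone, was at 180 CPM (168 to 191) in WT and 188 CPM (177 to 200) in KO in the Piwil1 cluster of late spermatocyte-like cells. Its level there was 2.36-fold (1.72 to 3.31) that of the Rad51ap2 early spermatocyte-like cluster in WT and 2.94-fold (2.43 to 3.59) in KO. The peak was narrow. The next cluster, the Pabpc6 late spermatocyte-like cells, held 8.37 CPM in WT and 9.16 CPM in KO, 21.5-fold (16.8 to 27.9) and 20.6-fold (15.6 to 27.7) lower. Early round spermatid-like cells held 13.6 and 13.2 CPM, and in all clusters from the Cd46 mid round cells onward the level was at most 1.73 CPM in WT and 3.38 CPM in KO. A Hist1h1t UMI was found in 87.4% (82.6 to 91.2) of the Piwil1 cluster's cells in WT and 84.2% (79.6 to 88.2) in KO. In Leydig-like cells, which should lack the gene, the shares were 3.12% and 2.71%. Median UMIs per cell were 19908 and 17367 in the Piwil1 cluster against 10004 and 7852.5 in Leydig-like cells, and with each cell thinned to 5781 UMIs the Piwil1 shares were 57.1% and 58.6% and the Leydig shares 2.35% and 1.83%.

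Hils1, a spermatid linker histone that acts as nuclei elongate, was low in the Pabpc6 cells, at 37.4 CPM (33.3 to 41.9) in WT and 27.7 CPM (23.5 to 32.3) in KO. In the Ssxb2 cluster of early round spermatid-like cells it was at 1020.4 and 782 CPM, 27.3-fold (24.3 to 30.7) and 28.3-fold (24.1 to 33.3) higher. The step between these neighbouring clusters was thus of one size in both libraries within its counting error. The level went on to 2390.0 and 2339.6 CPM in the Gip cluster and to 3728 and 4015 CPM in the Cd46 cluster, both mid round spermatid-like. It was highest in the Fam71b late round spermatid-like cluster, at 5537 CPM (5474 to 5601) in WT and 5739 CPM (5671 to 5808) in KO. There each cell had a Hils1 UMI in both libraries, with a median of 72 and 69 UMIs per cell. Along the 4 elongating spermatid-like clusters the level was lower at each step: 5035, 1712, 473 and 136 CPM in the Prss58, Tnp2, Prm1 and Spem1 clusters in WT. The KO values were 4803, 1211, 358 and 134 CPM. From the Fam71b to the Spem1 cluster the difference was 40.8-fold (37.8 to 44.2) in WT and 42.9-fold (36.7 to 50.5) in KO.

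H1fnt, which sits at one pole of the spermatid nucleus and is needed for its condensation, came later than Hils1. In the Ssxb2 cluster, where Hils1 UMIs were already found in 96.9% and 96.1% of cells, H1fnt was at 28.1 CPM (25.2 to 31.2) in WT and 15.3 CPM (13 to 17.8) in KO. The Gip cluster held 317 and 247 CPM, 11.3-fold (10.1 to 12.6) and 16.1-fold (13.8 to 19.0) more. The level was then 977 and 878 CPM in the Fam71b cluster. H1fnt was highest in the Tnp2 cluster in WT (1292 CPM, 1265 to 1318) and in the Prm1 cluster in KO (1240.3 CPM, 1195 to 1286). In KO the intervals of the Prm1 and Tnp2 clusters overlapped. In the Spem1 cluster it was at 560 CPM in WT and 719 CPM in KO, 2.18-fold (2.09 to 2.28) and 1.72-fold (1.6 to 1.86) under its Prm1 level. Over the same step Hils1 went from 473 to 136 CPM in WT and from 358 to 134 CPM in KO.

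The order shows in the make-up of the 3 linker histones, whose UMI shares are compared here only between clusters. Hist1h1t made up 74.8% of their UMIs in the Piwil1 cluster in WT and 74.7% in KO. Hils1 made up 96.1% and 96.5% in the Ssxb2 cluster, 85.0% and 86.7% in the Fam71b cluster and 57.0% and 50.8% in the Tnp2 cluster. H1fnt made up 72% and 77.5% in the Prm1 cluster and 80.3% and 84.0% in the Spem1 cluster. From the Piwil1 cluster onward the balance thus moved from Hist1h1t to Hils1 to H1fnt in both libraries. Before it, Hils1 had the largest share of their few UMIs, 75.5% and 78.0% in spermatogonia-like and 62.3% and 47.1% in early spermatocyte-like cells. The 9 genes together took 0.684% of all UMIs of late round spermatid-like cells in WT and 0.693% in KO, of which 0.651% and 0.662% were the 3 linker histones.

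**Figure D2:**
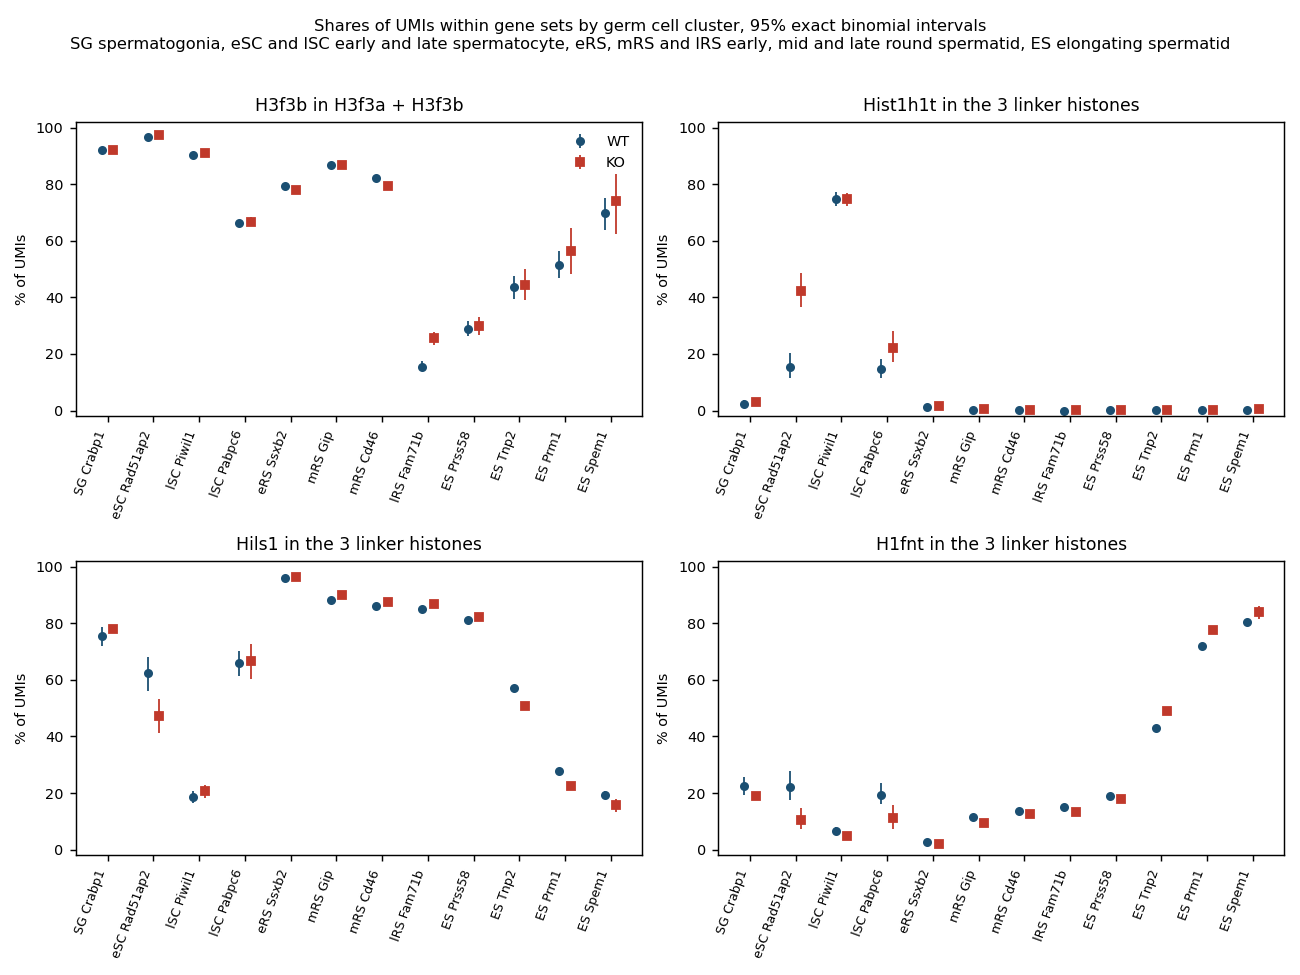
Share of H3f3b in the UMIs of H3f3a and H3f3b, and of each linker histone in the UMIs of the 3 linker histones (% of UMIs), by germ cell cluster in stage order, with 95% exact binomial intervals for WT (circles) and KO (squares). The H3f3b share is 82.1% and 79.5% in the Cd46 cluster against 15.6% and 25.5% in the Fam71b cluster, and from the Piwil1 cluster onward the largest linker share passes from Hist1h1t to Hils1 to H1fnt.

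Outside the spermatids, Hils1 and H1fnt were also counted in cells that are not known to use them. In Leydig-like cells Hils1 was at 17.3% of its level in elongating spermatid-like cells in WT and at 6.88% in KO, and H1fnt at 5.32% and 4.80%. The 32 markers of elongating spermatids had medians of 6.89% and 5.37% there, and 52.7% and 15.3% in Sertoli-like cells. None of the 32 was at 0 in Leydig-like or Sertoli-like cells. In spermatogonia-like cells the marker medians were 9.74% and 7.65%, beside 9.35% and 6.50% for H1fnt and 17.1% and 11.4% for Hils1. In spermatogonia-like cells H1fnt thus lay near the marker median and Hils1 above it, in KO also above the highest of the 32 markers (10.3%). Among early spermatocyte-like cells of WT Hils1 was at 15.1%, beside a highest marker of 13.9%, and in those of KO at 2.79%, beside a median of 3.92%. These comparisons depend on the elongating class as the reference. In late round spermatid-like cells Hils1 was at 272% of its elongating level in WT and 225% in KO. The markers there had medians of 61.0% and 69.2% and highest values of 268% and 228%. The part of free spermatid RNA in the values outside the spermatids was not tested.

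**Figure D3:**
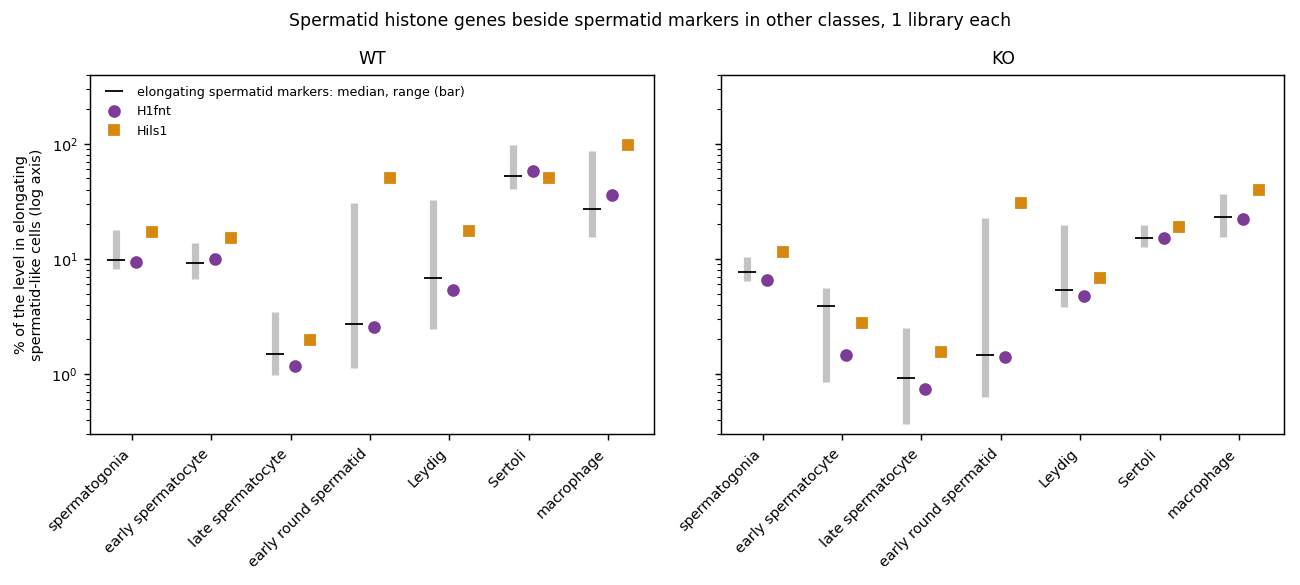
Level of H1fnt (circles) and Hils1 (squares) in 7 classes as a percentage of their level in elongating spermatid-like cells (log axis), beside the median (dash) and range (bar) of 32 elongating spermatid markers, for WT (left) and KO (right). In early spermatocyte-like cells the marker median is 9.21% in WT and 3.92% in KO, with H1fnt at 9.99% and 1.46% and Hils1 at 15.1% and 2.79%.

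The testis H2A and H2B genes were highest in the Rad51ap2 cluster, the early spermatocyte-like cells. Without integration of the libraries the highest cluster of both genes in WT and of Hist1h2aa in KO was a spermatogonia-like cluster. With histone genes left out of clustering it was one for both genes in both libraries. No early spermatocyte-like class was found in that case, so the highest cluster could not be given that name. Hist1h2ba, coding for TH2B, was at 62.1 CPM (49.7 to 76.5) in WT and 36.9 CPM (32.6 to 41.5) in KO in spermatogonia-like cells. In early spermatocyte-like cells it was at 218 CPM (180 to 261) and 432 CPM (403 to 464). These levels were 3.51-fold (2.63 to 4.68) and 11.7-fold (10.2 to 13.5) those of spermatogonia-like cells, so the step was the larger in KO. The Piwil1 cluster held 31.8 and 41.4 CPM, 6.85-fold (5.36 to 8.72) and 10.4-fold (8.98 to 12.2) less than the Rad51ap2 cluster. From the Pabpc6 cells onward no cluster passed 1.85 CPM in WT or 3.41 CPM in KO. UMIs of Hist1h2ba were found in 59.7% (47.0 to 71.5) of early spermatocyte-like cells in WT and 67.4% (61.4 to 73.0) in KO, beside 2.08% and 1.86% of Leydig-like cells. Thinned shares were 42.1% and 67.6%, beside 1.18% and 1.22% of Leydig-like cells. Median UMIs per early spermatocyte-like cell were 6928 and 6434.

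Hist1h2aa, coding for TH2A, was also highest in the Rad51ap2 cluster, with fewer UMIs. It was at 47.8 CPM (37.0 to 60.7) in WT and 27.8 CPM (24.1 to 31.9) in KO in spermatogonia-like cells, and at 136 CPM (106 to 171) and 147 CPM (130 to 165) in early spermatocyte-like cells. In the Piwil1 cluster it was already at 3.42 and 7.22 CPM, 39.6-fold (23.4 to 70.5) and 20.3-fold (14.4 to 29.4) lower. Of the pair, Hist1h2aa thus had the larger difference between these clusters. No UMI of Hist1h2aa was found in the Fam71b cluster of WT, which allows a level of up to 0.573 CPM, nor in the Tnp2 cluster of either library or the Spem1 cluster of KO. Over the 24 points that the 12 clusters of the 2 libraries give, log2(CPM + 1) of Hist1h2ba and Hist1h2aa had a Pearson r of 0.955. The points share libraries, depth and clusters.

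H2afx and H2afz were highest in the spermatocyte-like clusters and lower from one round spermatid-like cluster to the next. H2afx was at 34.2 CPM in WT and 34.3 CPM in KO in spermatogonia-like cells, and at 171 CPM (138 to 210) and 142 CPM (126 to 161) in early spermatocyte-like cells, 5-fold (3.49 to 7.24) and 4.15-fold (3.48 to 4.95) more. In the Piwil1 cluster it was at 121 CPM (112 to 131) and 152 CPM (141 to 162), so its highest cluster was the Rad51ap2 cluster in WT and the Piwil1 cluster in KO. The KO intervals of these 2 clusters overlapped. The level then went through 82.0 and 99.7 CPM in the Pabpc6 cells and 38.0 and 54.6 CPM in the Ssxb2 cells to 10.3 and 15.5 CPM in the Gip cells. From the Fam71b cluster onward it was at most 5.50 CPM in WT and 3.02 CPM in KO, and no UMI was found in the Spem1 cluster of KO, which allows up to 2.54 CPM. H2afx UMIs were found in 84.2% and 81.8% of Piwil1 cells, beside 12.5% and 11.3% of Leydig-like cells.

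H2afz, whose product marks promoters, was at 215 and 159 CPM in spermatogonia-like cells and at 383 and 330 CPM in early spermatocyte-like cells. The Piwil1 cluster held 808 CPM (784 to 833) in WT and 739 CPM (716 to 763) in KO, 2.11-fold (1.84 to 2.44) and 2.24-fold (2.06 to 2.44) more than the Rad51ap2 cluster. Both libraries thus placed its peak in the Piwil1 cells. Levels of 495 and 439 CPM in the Pabpc6 cells, 303 and 282 CPM in the Ssxb2 cells and 109 and 119 CPM in the Gip cells followed. The Gip level was 18.3-fold (12.9 to 27.1) that of the Fam71b cluster in WT and 19.3-fold (13.3 to 28.9) in KO. In the 5 clusters from the Fam71b cells onward H2afz stood between 5.92 and 8.97 CPM in WT and between 6.19 and 12.7 CPM in KO, and neighbours in the order of these levels overlapped in their intervals.

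The H3.3 genes differed from each other in course. H3f3a stayed in a narrow range up to the late round spermatids. It lay between 164 CPM in early spermatocyte-like cells and 449 CPM (434 to 465) in the Cd46 cluster of WT, and between 132 and 421 CPM (406 to 437) in the same clusters of KO. At a resolution of 0.8 its highest cluster was late round spermatid-like in both libraries, and without integration it was so in KO. The Fam71b cluster still held 263 and 220 CPM, 1.71-fold (1.6 to 1.82) and 1.92-fold (1.79 to 2.06) less than the Cd46 cluster. The Spem1 cluster held 17.1 and 16.1 CPM, 15.4-fold (12.3 to 19.4) and 13.7-fold (8.70 to 22.8) less than the Fam71b cluster.

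H3f3b was high in spermatogonia-like and early spermatocyte-like cells and again in mid round spermatids, and low from the late round spermatids on. With histone genes left out of clustering, where no early spermatocyte-like class was found, its highest cluster was a spermatogonia-like one in both libraries. In spermatogonia-like cells H3f3b was at 3292 CPM in WT and 2799 CPM in KO. It was at 4973 CPM (4786 to 5165) in WT and 4919 CPM (4818 to 5022) in KO in early spermatocyte-like cells, and at 498 and 469 CPM in the Pabpc6 cells, 9.99-fold (9.51 to 10.5) and 10.5-fold (10.04 to 10.9) lower. The Gip mid round cells held 2284 and 2175 CPM, 4.59-fold (4.44 to 4.75) and 4.63-fold (4.45 to 4.83) more than the Pabpc6 cells. A low point in late meiosis, between a maximum on either side, was thus present in both libraries. From the Cd46 to the Fam71b cluster the level went from 2056 to 48.5 CPM in WT, a 42.4-fold difference (37.4 to 48.1), and from 1634 to 75.1 CPM in KO, 21.8-fold (19.6 to 24.3). A UMI of H3f3b was found in 94.0% and 93.9% of Cd46 cells, and in 41.0% (35.7 to 46.6) and 47.1% (41.5 to 52.8) of Fam71b cells. After thinning the shares were 86.7% and 82.4%, then 23.0% and 24.3%. In Leydig-like cells, where H3.3 is also made, 97.9% and 98.2% had a UMI.

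As a share of the UMIs of both H3.3 genes, H3f3b was at 96.8% (96.1 to 97.4) in WT and 97.4% in KO in early spermatocyte-like cells and at 66.2% and 66.8% in the Pabpc6 cells. It was back at 86.7% and 86.8% in the Gip cells. It then went from 82.1% and 79.5% in the Cd46 cells to 15.6% (13.8 to 17.4) and 25.5% (23.2 to 27.9) in the Fam71b cells. The share in the Fam71b cells was the higher in KO, with intervals that did not overlap. The size of this step depends on how finely cells are clustered: between mid and late round spermatid-like classes it was 69.5 percentage points in WT and 58.8 in KO, and 25.8 and 29.1 at a finer resolution of 0.8. Along the elongating spermatid-like clusters it was higher at each step, at 28.9%, 43.5%, 51.5% and 69.7% in WT and 29.8%, 44.4%, 56.5% and 74.0% in KO. H3f3b itself stayed between 36.6 and 42.7 CPM in these WT clusters, while H3f3a went from 105 to 17.1 CPM. The 3 related genes have their own rows, so reads of the H3.3 genes may be split: H3f3a-ps1 had 1250 and 1275 UMIs, H3f3a-ps2 224 and 177, and H3f3c 252 and 200.

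Genes whose course over the 24 points was most like that of each member were sought among 9066 genes with at least 1000 UMIs in germ cells. For Hils1 they were Tmco2 (r = 0.994), Trim36 (0.993) and Cypt12 (0.989), and for H1fnt Slfnl1 (0.995), Txndc2 (0.995) and Smim23 (0.993). For Hist1h1t they were Nr2c2 (0.929), Srek1 (0.928) and 4930579G24Rik (0.924), the lowest values of the 9 genes. Hist1h2ba had Ccdc115 (0.966), Tex101 (0.961) and Ifnar1 (0.959), and Hist1h2aa had Ifnar1 (0.982), Zcwpw1 (0.978) and Haus8 (0.975). Zcwpw1, a reader of histone marks at meiotic recombination sites, and Cypt12 were among the markers used to name clusters. For H2afx they were Sdf2l1 (0.978), Stim1 (0.976) and Cdkn2d (0.975), and for H2afz Srp14 (0.993), Cpt2 (0.991) and Dgat1 (0.990). H3f3a had Atp6v1f (0.960), Ndufa7 (0.960) and Bola1 (0.958), and H3f3b had Gng5 (0.979), Dph6 (0.973) and Eif5b (0.973).

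The comparison of KO with WT asked whether histone genes differ in the absence of Alkbh5. A gene was called higher or lower when at least 25% of the cells of either library had its UMIs and it differed by at least 0.25 in the natural log of the mean count scaled to 10000 per cell plus 1. Over all germ cells 6 of the 9 genes reached the 25%, of which 1 rose and 1 fell, against 11.5% of 4603 genes higher and 5.87% lower. H3f3b rose, from 1059.7 to 1353 CPM (log2 ratio 0.35, interval 0.34 to 0.37). H1fnt fell, from 539 to 393 CPM (log2 ratio −0.45, −0.48 to −0.43). Neither share stands far from the background. Giving each germ cell cluster equal weight left H1fnt at a log2 ratio of −0.09 and turned H3f3b to −0.10, with no gene called.

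The same weighting bears on the genes of early meiosis, of which Hist1h2ba and Hist1h2aa were found in under 25% of cells and not tested. Hist1h2ba had 440 UMIs in WT and 1364 in KO over all germ cells, a log2 ratio of 1.88 (1.72 to 2.04), and 0.72 with equal weight per cluster. For Hist1h2aa, with 179 and 548 UMIs, the ratio was 1.86 (1.62 to 2.11) and −0.02 with equal weight. For H2afx, which was tested and not called, the ratio was 0.56 (0.48 to 0.64) and 0.10 with equal weight. Without the early spermatocyte-like cells, an alternative chosen after seeing the data, the ratios were 1.11 for Hist1h2ba, 1.68 for Hist1h2aa and 0.51 for H2afx. Hils1 (−0.06), H2afz (0.08) and H3f3a (0.03) were near 0 over all germ cells.

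**Figure D4:**
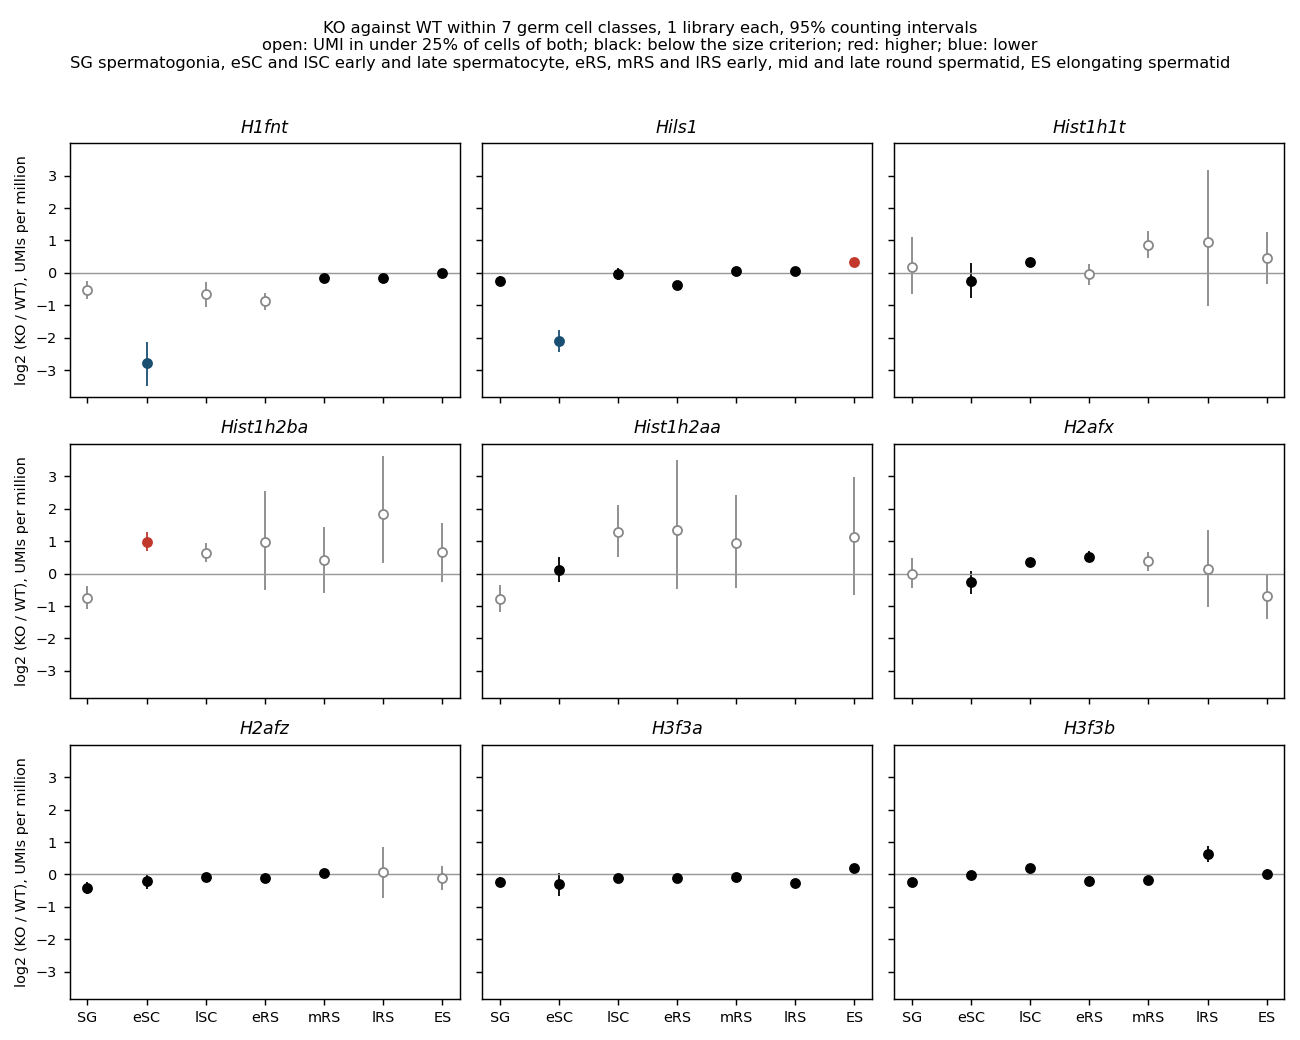
Log2 ratio of CPM, KO over WT, of each gene within 7 germ cell classes, with 95% exact counting intervals and 1 library per genotype; open points had a UMI in under 25% of cells of both libraries, black points are below the size criterion, red points are higher and blue points lower in KO. H1fnt (−2.79) and Hils1 (−2.11) are lower and Hist1h2ba (0.99) is higher in early spermatocyte-like cells, and Hils1 is higher (0.33) in elongating spermatid-like cells.

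Within the 7 classes, 37 of the 63 gene and class pairs reached the 25% and 4 were called. None of the 4 tested genes was called in spermatogonia-like cells, where 2.59% of all tested genes were called in either direction. The same held for 6 tested genes in late spermatocyte-like cells (1.63% of all genes called), 5 in early round (1.68%), 5 in mid round (3.63%) and 4 in late round spermatid-like cells (5.12%). In early spermatocyte-like cells all 9 were tested and 3 were called, beside 9.4% of all genes. In elongating spermatid-like cells 1 of 4 was called, beside 11.8%.

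Hist1h2ba rose in early spermatocyte-like cells, from 117 UMIs in 67 WT cells to 790 UMIs in 267 KO cells, with a log2 ratio of 0.99 (0.71 to 1.28). Its neighbour Hist1h2aa was at 136 and 147 CPM there (0.11, −0.27 to 0.51). In spermatogonia-like cells the pair was lower in KO without being tested, with log2 ratios of −0.75 (−1.10 to −0.39) for Hist1h2ba and −0.78 (−1.18 to −0.36) for Hist1h2aa. The genes that fell in early spermatocyte-like cells were the spermatid linker histones H1fnt, with 59 and 29 UMIs (−2.79, −3.48 to −2.12), and Hils1, with 165 and 130 UMIs (−2.11, −2.45 to −1.77). In the same cells the summed level of the 32 elongating spermatid markers was 27865 CPM in WT and 8339 CPM in KO, with none of them at 0. A UMI of H1fnt was found in 25.4% of WT and 7.49% of KO cells, beside 19.8% and 10.3% of Leydig-like cells. The part of free spermatid RNA in the fall of these genes was not tested. The call of H1fnt was lost with doublets removed, with cells thinned and without integration of the libraries, and the call of Hils1 was lost without integration. With histone genes left out of clustering no early spermatocyte-like class was found, so that the call of Hist1h2ba could not be made.

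In elongating spermatid-like cells Hils1 rose, from 2034 to 2555 CPM (log2 ratio 0.33, 0.31 to 0.35), beside a median of 0.11 over all tested genes. The class was made up differently in the libraries: the Prss58, Tnp2, Prm1 and Spem1 clusters held 547, 632, 672 and 554 of its 2405 cells in WT and 500, 395, 257 and 153 of its 1305 cells in KO. Within these clusters, in the same order, the log2 ratios of Hils1 were −0.07, −0.50, −0.40 and −0.02. It was thus not higher in KO in any of the 4, and it was called lower in the Tnp2 cluster. With a CPM ratio of 1.5 as the criterion, or equal weight per cluster (chosen after seeing the data), Hils1 was not called in the class. H1fnt was at 1098 and 1088 CPM in the class (−0.01, −0.04 to 0.02).

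Of the 63 pairs, 15 had an interval above 0 and 23 an interval below 0, most of them under the size criterion or not tested. H1fnt had an interval below 0 in 6 of the 7 classes, H3f3a in 5 and H2afz in 3. The share of all genes with such an interval was not counted, so these counts have no background to be read against. H1fnt was at 977 and 878 CPM in late round spermatid-like cells (−0.15, −0.21 to −0.09), and Hils1 at 1020.4 and 782 CPM in early round spermatid-like cells (−0.38, −0.42 to −0.34). H2afz was at 215 and 159 CPM in spermatogonia-like cells (−0.43, −0.62 to −0.25). Other values were higher in KO. H3f3b in late round spermatid-like cells was at 48.5 CPM in WT and 75.1 CPM in KO (0.63, 0.39 to 0.87), and it was called higher there without integration and with a CPM ratio of 1.5. H2afx was at 97.2 and 125 CPM in late spermatocyte-like cells (0.36, 0.25 to 0.47) and at 38.0 and 54.6 CPM in early round spermatid-like cells (0.52, 0.35 to 0.70). Hist1h1t in late spermatocyte-like cells was at 75.6 and 95.4 CPM (0.34, 0.21 to 0.46), while within the Piwil1 cluster it was at 180 and 188 CPM. For H3f3a the log2 ratio lay between −0.31 and 0.19 over the 7 classes, and for H2afz between −0.43 and 0.04 over the 5 classes where it was tested.

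Other histone genes were counted in a list of 38, of which 35 were in the tables and 7 reached the 25% over all germ cells. Of these, 3 rose and 2 fell (11.5% and 5.87% of all genes), with a median log2 ratio of 0.89 beside 0.05 over all genes. H2afv, a second H2A.Z gene, rose by a log2 ratio of 1.48, and H2al3 and H2al1n, which code for short H2A-like histones of spermatids, by 1.21 and 1.12. H2afv was not called in any germ cell class. In spermatogonia-like cells, its highest class, it was at 532 CPM in WT and 563 CPM in KO. The genes that fell were H2afb1 (−0.38), which codes for another short H2A, and 1700024P04Rik (−0.43). Both were highest in elongating spermatid-like cells, where neither was called. There 1700024P04Rik was at 2555 CPM in WT and 2539 CPM in KO, and H2afb1 at 2474 and 2557 CPM. H2al genes were called higher within classes as well, as 2 of 8 tested list genes in mid round, 3 of 7 in late round and 3 of 5 in elongating spermatid-like cells. All genes called there in either direction were 3.63%, 5.12% and 11.8%. H2al3 went from 256 to 635 CPM in mid round (1.31), from 787 to 1920.2 CPM in late round (1.29) and from 482 to 1593 CPM in elongating spermatid-like cells (1.72). H2al1n rose by 1.51, 1.59 and 1.54 in these classes, and H2al1b by 1.17 in late round and 1.16 in elongating spermatid-like cells. The elongating class is made up differently in the libraries, so its ratios can move with its clusters. Within it, H2al1n was called higher in the Prss58, Tnp2, Prm1 and Spem1 clusters. H2al3 was called higher in these except the Spem1 cluster, and H2al1b only in the Prss58 and Tnp2 clusters. The H2al1 genes have close copies, between which reads may be split.

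In the meiotic classes, Hist3h2a rose from 19.9 to 64.2 CPM in late spermatocyte-like cells (1.69, 1.48 to 1.90), as 1 of 4 tested beside 1.63% of all genes. In early spermatocyte-like cells 5 of 10 tested histone genes fell, beside 9.4% of all genes called there in either direction. These were 1700024P04Rik (−1.77), H1fx (−1.56), Hist1h1e (−1.39), Hist1h1c (−0.80) and Hist1h4d (−0.77). The first of these was highest in elongating spermatid-like cells (2555 CPM in WT), and the summed spermatid markers were at 27865 CPM in WT and 8339 CPM in KO in these early cells. H1fx, Hist1h1e and Hist1h1c code for somatic linker histones. Of the other somatic linker histones, Hist1h1a (1117 and 1158 CPM) and H1f0 (229 and 204 CPM) were tested there and not called. In spermatogonia-like cells 2 of 8 fell, the linker histones H1f0 (−1.01) and Hist1h1c (−0.62), beside 2.59% of all genes called in either direction.

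Among 32 genes for histone chaperones and remodellers, 20 reached the 25% over all germ cells, 5 rose and none fell, beside 11.5% and 5.87% of all genes, with a median log2 ratio of 0.53 beside 0.05. Supt16, a subunit of the FACT chaperone, rose by 1.51, Nap1l1, a chaperone of H2A and H2B, by 1.30 and Npm1 by 1.04. Within germ cell classes only 3 calls were made. Anp32e, which removes H2A.Z, rose in spermatogonia-like cells (1.05), as 1 of 25 tested, beside 2.59% of all genes called in either direction. Rbbp7 (0.54) and Npm1 (0.45) rose in early spermatocyte-like cells, as 2 of 24 tested, beside 9.4% of all genes. Neither share stands far from that of all genes. Of 20 genes linked to H2A.X phosphorylation and the XY body, 5 reached the 25%, 2 rose (Scml2 by 2.26 and Hormad1 by 1.11) and Ube2n fell (−0.57), beside 11.5% of all genes higher and 5.87% lower. Hormad1, a meiotic axis protein, also rose in late spermatocyte-like cells (0.67), the kinase gene Atm rose in early spermatocyte-like cells (0.96), and Ube2n fell in elongating spermatid-like cells (−0.46). These were 1 of 7, 1 of 13 and 1 of 1 tested, beside 1.63%, 9.4% and 11.8% of all genes called in either direction. Ube2n was not called in any single cluster of the elongating class, which is made up differently in the libraries. Scml2 was not called in any class, with log2 ratios of 0.13 in spermatogonia-like and 0.45 in early spermatocyte-like cells.

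Of 22 genes linked to the removal of histones in spermatids, 14 reached the 25% over all germ cells, none rose and 6 fell, beside 11.5% and 5.87% of all genes, with a median log2 ratio of −0.22 beside 0.05. The kinase gene Tssk6 fell by 0.92, Prm3 by 0.87 and the protamine gene Prm2 by 0.72 on the log2 scale. In early spermatocyte-like cells 6 of 12 fell, led by the transition protein gene Tnp2 (−2.44), Hmgb4 (−2.16) and Tnp1 (−2.07), beside 9.4% of all genes called in either direction. Of the same list 4 of 14 fell in spermatogonia-like cells (2.59% of all genes called), 4 of 15 in late spermatocyte-like cells (1.63%), 6 of 13 in early round (1.68%), 2 of 14 in mid round (3.63%) and 1 of 12 in late round spermatid-like cells (5.12%). Most of the genes that fell are spermatid genes, and the summed level of the 32 spermatid markers was 27865 CPM in WT and 8339 CPM in KO in early spermatocyte-like cells. These markers include Tnp1, Tnp2, Prm1, Prm2, Hmgb4 and Tssk6, so the sum holds counts of listed genes and is no separate comparison. Of 11 tested in elongating spermatid-like cells (11.8% of all genes called), Tssk6 (−0.52) and Prm3 (−0.47) fell, and Cdyl, which codes for a chromodomain protein, rose from 212 to 396 CPM (0.90, 0.85 to 0.96). Tssk6 and Cdyl were not called in any cluster of this class, which is made up differently in the libraries. Prm3 was called lower in the Tnp2, Prm1 and Spem1 clusters and not in the Prss58 cluster.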

How the data were processed

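Both tables, as deposited by the authors, hold raw counts of UMIs per gene and cell barcode. Per the methods and the labels' processing notes, the authors trimmed reads with fastp, aligned read 2 with STAR 2.5.3a and assigned reads to genes with featureCounts 1.6.2. The methods name a human genome build, whereas the symbols in the tables are those of mouse genes, so the build behind the counts is uncertain. How barcodes were selected is not given in the sources used here.

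Cells with over 500 genes were clustered in Seurat 5.3.0 (R 4.3.3) after integration of both libraries, with 2000 variable features, 20 anchor dimensions, 30 components and a resolution of 0.3, after the settings of the study. Clusters were ordered by stage from marker genes and called X-like from at least 3 markers. Marker lists of early elongating and condensing spermatids were merged into 1 class, a choice made after seeing the data. Scrublet in scanpy 1.11.5 marked 243 WT (4.22%) and 348 KO (4.96%) barcodes as doublets, which were kept. UMIs were summed per library and cluster or class. Intervals of levels (exact Poisson), of shares (exact binomial, Clopper-Pearson) and of ratios (exact conditional) came from scipy 1.17.1 at 95%. A count of 0 was given an upper limit of 3 counts. With 1 library per genotype no test was run, and genes were called by the size criterion given in the text, within classes with at least 20 cells per library. For thinned shares each cell was reduced to 5781 UMIs, the 10th percentile of germ cells, which left out 403 WT and 972 KO cells.

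The members and gene lists were chosen with earlier results of these data known. The text names the 9 members, in each list the genes with up to 3 largest positive and 3 largest negative log2 ratios among those called in the group described, and for each member the 3 genes most correlated with it. Where more list genes are named, they were chosen after their values were seen. The size criterion and the ratio interval were tested on simulated cells with Poisson counts and known changes, drawn from the levels of a single WT cluster. The simulation held no free RNA, no shift in cell make-up and no other difference between libraries, so it does not cover these. Alternatives were doublets removed, over 1000 genes per cell, resolution 0.8, no integration, histone genes left out of clustering, equal weight per cluster, totals without mitochondrial and ribosomal protein genes, thinned cells, a minimum of 10% of cells and a CPM ratio of 1.5. Removing early spermatocyte-like cells and giving clusters within a class equal weight were added after seeing the data.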

Additional observations from a re-analysis of the deposited data

Results flagged for a closer look

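Hils1 was the gene of the 9 that was called in opposite directions in different classes. Its log2 ratio of KO over WT was −2.11 (−2.45 to −1.77) in early spermatocyte-like cells and 0.33 (0.31 to 0.35) in elongating spermatid-like cells. The difference between the classes was not tested, since each genotype has 1 library. In early spermatocyte-like cells the median of 32 elongating spermatid markers was at 9.21% of their elongating level in WT and at 3.92% in KO, beside 15.1% and 2.79% for Hils1. In elongating spermatid-like cells the ratio of Hils1 was between −0.50 and −0.02 within the 4 clusters, and with equal weight per cluster it was no longer called.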

How the results depend on the processing

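Of 68 alternative counts and differences in share, 54 were near the value given and 14 moved. Near meant within 1.5 times for a count. For the difference in the H3f3b share it was judged by the width of the interval of the late round share alone. Of 99 alternative log2 ratios over all germ cells 75 stayed within their interval and 24 did not, 4 of these with a change of sign. Over all germ cells the 1 gene higher and 1 lower became 0 and 0 with equal weight per germ cell cluster, where the ratios of H3f3b (−0.10), H3f3a (−0.14), H2afz (−0.16) and Hist1h2aa (−0.02) turned negative, and 0 and 0 with a CPM ratio of at least 1.5. Within classes the 2 calls lower in KO became 1 with doublets removed and 1 with cells thinned, Hils1 in early spermatocyte-like cells each time. Without early spermatocyte-like cells, an alternative chosen after seeing the data, 1 call was higher and 0 were lower. With histone genes left out of clustering, where no early spermatocyte-like class was found, the calls were also 1 higher and 0 lower, and 5 of 9 members in WT kept the class of their highest cluster. With equal weight per cluster within a class, also chosen after seeing the data, 1 call was higher, that of Hist1h2ba in early spermatocyte-like cells. The difference in the H3f3b share between mid and late round spermatid-like cells, 69.5 percentage points in WT and 58.8 in KO, was 25.8 and 29.1 at a resolution of 0.8. The cause was not tested. Without integration, mid round clusters divided by library, the calls lower in KO were H2afx and H3f3b in early spermatocyte-like cells in place of H1fnt and Hils1, 7 of 9 members in WT and 6 in KO kept the class of their highest cluster, and H3f3b was called higher in late round spermatid-like cells beside Hist1h2ba and Hils1.

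No paired analysis was possible because each genotype has 1 library. The 67 early spermatocyte-like cells of WT held 537923 UMIs, so 3 counts there stand for 5.58 CPM. Small differences of genes with few UMIs were not detectable in this class at this depth.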
